A study of Mus musculus with 4 samples.

Results

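The proteasome subunit genes are the protein-coding mouse genes whose symbols run from Psma to Psmg followed by a number: the subunits of the proteolytic core, of its regulatory caps, of its activators and of the chaperones that assemble it. Selected by symbol alone, they numbered 49 of the 56239 genes in the count table: 8 alpha and 7 beta subunits of the standard core, 3 immunoproteasome subunits, 1 thymoproteasome subunit, 9 base and 8 lid subunits, 5 activators, 1 inhibitor, and 4 core and 3 base assembly chaperones. Their transcripts were measured by RNA-seq in double-positive (DP) thymocytes, which carry both CD4 and CD8 and were sorted from the thymus of C57BL/6 mice. WT mice carried Chaf1b alleles with loxP sites and no Cre, so the controls also held the floxed alleles; KO mice carried the same alleles with Cd4-cre, in which Cre recombinase is under Cd4 control and so acts in the T lineage only from the stage at which Cd4 is expressed. There were 2 WT and 2 KO libraries, with 21068760 to 27369874 counts each, and neither age nor the number of mice behind a library is stated in the labels. The question put to these genes is whether deletion of Chaf1b, a subunit of chromatin assembly factor 1, alters their transcript levels in DP cells.

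The proteasome degrades proteins tagged with ubiquitin. Its core is a barrel of stacked rings, with outer rings of alpha subunits that form a gate and inner rings of beta subunits, of which Psmb5, Psmb6 and Psmb7 carry the proteolytic sites. Psmb8, Psmb9 and Psmb10 take the places of Psmb5, Psmb6 and Psmb7 in the immunoproteasome, which cells of the immune system make and which favours peptides that bind MHC class I. Psmb11 takes the place of Psmb5 in the thymoproteasome of cortical thymic epithelial cells, the cells that present the peptides on which CD8 T cells are positively selected; DP thymocytes are the cells so selected, and are not known as a source of Psmb11. Caps made of a base with ATPases and a lid, or activators such as Psme1 and Psme2, open the gate.

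The label of the sorted cells was borne out by their transcripts: all 9 DP marker genes had counts, and their summed level was 16322 and 16002 CPM (counts scaled to library size, with TMM factors) in WT replicates 1 and 2 and 20739 and 16924 CPM in KO replicates 1 and 2. Chaf1b had 27.9 and 31.7 CPM in WT and 12.2 and 14.8 CPM in KO, a log2 fold change of -1.14 ± 0.16 (SE, n = 2 per genotype; edgeR's quasi-likelihood test, adjusted p = 0.267). In both genotypes replicate 1 was female, with 47368 and 47301 counts of Xist, and replicate 2 male, with 8 and 12. A second edgeR fit added the replicate number, and so sex, to the model; this sex-term fit gave Chaf1b -1.15 with an adjusted p of 0.0172. The KO libraries, and KO replicate 1 most, stood apart in makeup: mitochondrially encoded transcripts took 1.33% and 1.45% of counts in WT and 3.30% and 2.03% in KO, and ribosomal protein transcripts 2.79% and 2.84% in WT and 4.83% and 3.50% in KO. The part of this in the values below was not tested.

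The 3 subunits that can fill the same catalytic place in the core, Psmb5, Psmb8 and Psmb11, are shown by their promoters, since their transcript levels were far apart: Psmb5 and Psmb8 were abundant and Psmb11 was nearly undetected. The sequences come from RefSeq on GRCm38.p6, which held promoters for 41 of the 49 genes, and run 5′ to 3′ on the gene's strand from 250 bases before to 50 bases after the annotated start; capitals mark motif matches. For Psmb5 the window is chr14:54617946-54618245 on the minus strand, for Psmb8 chr17:34197945-34198244 on the plus strand, and for Psmb11 chr14:54625060-54625359 on the plus strand. In Psmb5 the capitals are a match to the antioxidant response element core TGACNNNGC that begins 47 bases before the start. In Psmb8 they are a match to the gamma-activated site core TTCNNNGAA beginning 97 bases before the start, and in Psmb11 a CCAAT box beginning 155 bases before it.
Psmb5: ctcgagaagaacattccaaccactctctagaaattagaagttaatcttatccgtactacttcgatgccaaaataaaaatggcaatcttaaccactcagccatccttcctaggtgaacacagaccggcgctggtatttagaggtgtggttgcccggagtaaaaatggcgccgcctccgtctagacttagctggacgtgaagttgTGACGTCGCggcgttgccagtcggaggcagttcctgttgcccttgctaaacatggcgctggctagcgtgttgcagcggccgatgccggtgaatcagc
Psmb8: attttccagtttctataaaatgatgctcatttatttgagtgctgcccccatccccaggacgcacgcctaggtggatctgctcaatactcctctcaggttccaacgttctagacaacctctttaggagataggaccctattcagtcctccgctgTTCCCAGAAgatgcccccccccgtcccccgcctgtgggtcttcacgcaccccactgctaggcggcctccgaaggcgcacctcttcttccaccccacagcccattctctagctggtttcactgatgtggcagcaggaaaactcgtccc
Psmb11: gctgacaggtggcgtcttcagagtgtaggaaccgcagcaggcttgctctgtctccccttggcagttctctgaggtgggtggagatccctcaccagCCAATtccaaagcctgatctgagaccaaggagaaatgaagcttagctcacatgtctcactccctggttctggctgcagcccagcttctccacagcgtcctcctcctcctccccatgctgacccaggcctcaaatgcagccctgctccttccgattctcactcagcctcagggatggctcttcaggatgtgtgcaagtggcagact
Both strands of each promoter were searched for these motifs and for the interferon-stimulated response element core, GAAA repeated after a gap of 2 bases. No match of one kind shared bases with another kind in these 3 windows. Across the family's 44 annotated promoters, TGACNNNGC was found in 6 (13.6%, against 12.4% of 32851 promoters of the same length): those of Psmb5, Psmb6, Psmc6, Psmd9, Psmd12 and Psme4. CCAAT was in 14 (31.8% against 37.4%) and TTCNNNGAA in 3 (6.82% against 8.30%), those of Psmb8, Psmd2 and Psmg1. The repeated GAAA was in 5 (11.4% against 3.44%): Psmb3, Psmd4, Psmd9, Psme1 and Psmg4. A match is a description of these letters; no binding was measured here.

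Expression of the family was high and, for nearly all members, differed little between the genotypes. Of the 49 genes, 47 passed the filter on low counts, and only Psma8 and Psmb11 did not. The tested members had 125 to 6983 counts in a library and a median WT level of 80.8 CPM, against 18.2 CPM over all 15070 genes tested. The log2 fold changes of 45 of the 47 lay within 0.5 of 0 (95.7%, against 76.5% of all genes). In either direction, 0 of the 47 exceeded 1, as against 836 of all 15070 genes. The genes set against them were not matched for level, and the part of the members' higher level in this contrast was not tested. The median log2 fold change of the members was 0.09, against 0.00 for all genes. Psmd1, the large scaffold subunit of the base, had the highest value, 0.67, and Psmg3, a core assembly chaperone, the lowest, -0.59. The 95% interval lay wholly within ±1 for 45 members and wholly within ±0.5 for 29. Over all 15070 genes, again not matched for level, these counts were 9191 and 3647.

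**Figure D1:**
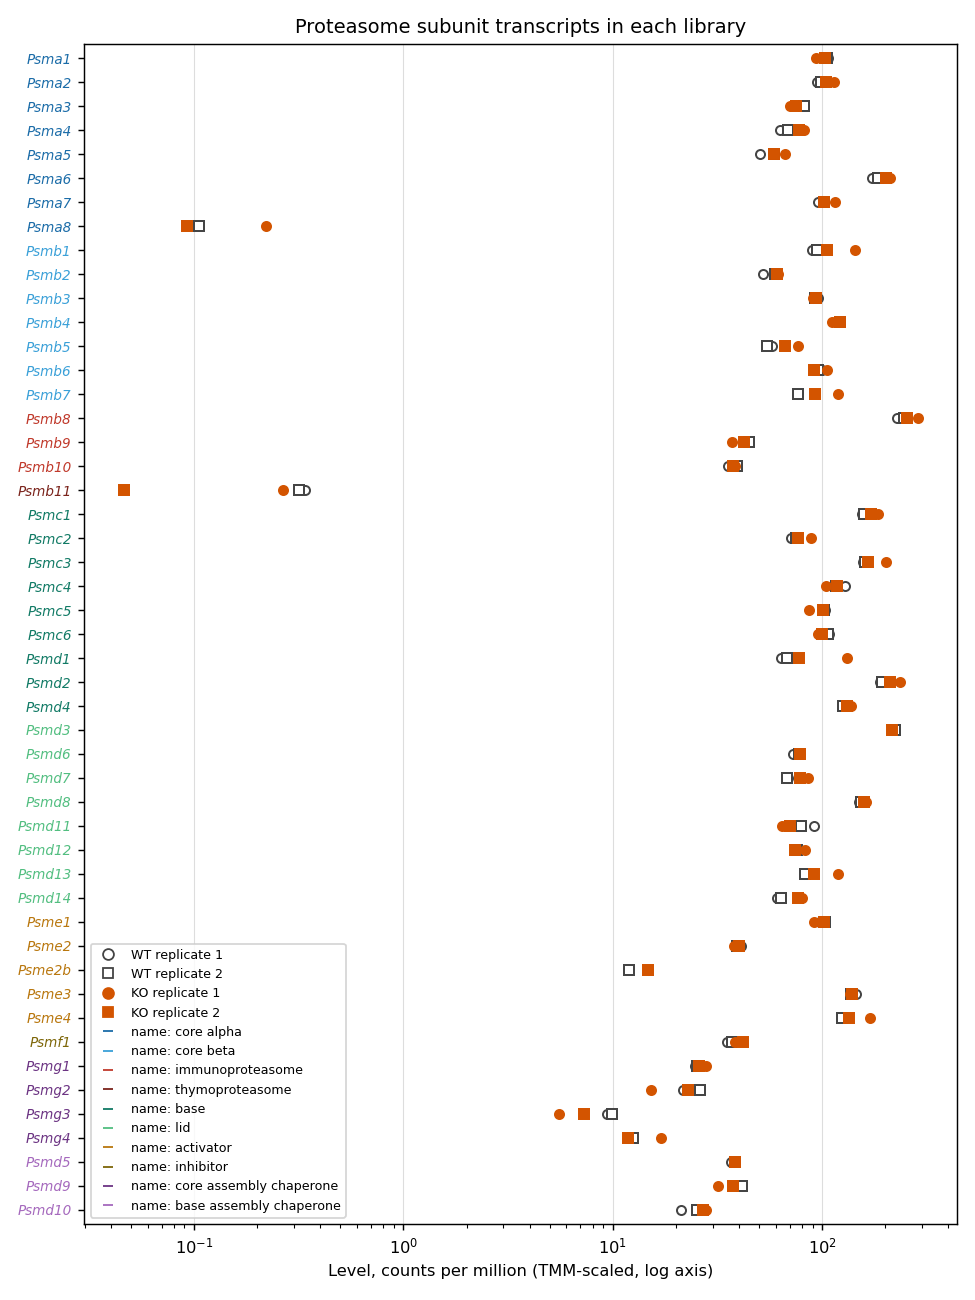
Level of each proteasome member in each library, in TMM-scaled CPM on a log axis; open symbols are WT, filled symbols KO, circles replicate 1, squares replicate 2, and the colour of a name gives its subcomplex. All tested members lie between 5.51 and 286 CPM with the libraries close together, while Psma8 and Psmb11 lie below 0.4 CPM; WT replicate 1 had no count of Psma8 and has no point.

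None of the 47 tested members passed an adjusted p of 0.05 in edgeR's quasi-likelihood test without a term, in which 0.00664% of all genes did, nor in the sex-term fit, in which 3.21% did. At an unadjusted p under 0.05, 8 members stood out in the test without a term, 6 higher and 2 lower in KO; that is 17.0% of members, beside 16.8% of all genes (8.14% higher and 8.69% lower). DESeq2 called 0 members (7 at an unadjusted p under 0.05), where it called 3.07% of all genes, and limma-voom 0 (8). The lowest adjusted p of a member was 0.267 without a term and 0.0814, for Psmd1, in the sex-term fit. These outcomes depended on KO replicate 2: without it, edgeR called 22 members, 17 higher and 5 lower, where 32.3% of all genes were called and the lone KO library was assumed to vary as the WT libraries do. With no filter on low counts, Psmd1 and Psmb7 passed without a term, as 5.63% of all genes did. With 2 libraries a genotype, the p-values speak of the spread among these 4 libraries alone.

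Small differences leaned upward. Members with a fold change above 0 numbered 31 of 47 (66.0%, against 49.8% of all genes), and in 24 members (51.1%) both KO libraries lay above both WT libraries, against 27.9% of all genes; in 9 (19.1%, against 28.4%) both lay below. The other 14 overlapped. Scaling by library totals, which moves the median of all genes to -0.08, put both KO libraries above in 17 members and below in 11, against 21.7% and 32.3% of all genes, and brought the members' median to 0.01. Summed over the family, the level was 4107 and 4184 CPM in WT and 4620 and 4318 CPM in KO, with both KO libraries above both WT libraries. This rested on the TMM factors. As a share of library totals the sum was 0.419% and 0.433% in WT and 0.424% and 0.443% in KO, where the genotypes overlapped. On the log2 scale the summed CPM differed by 0.11 (exact permutation test, two-sided p = 0.3333, the smallest that 2 against 2 libraries allow). In bulk RNA, fewer cells of a type and less RNA per cell cannot be told apart.

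**Figure D2:**
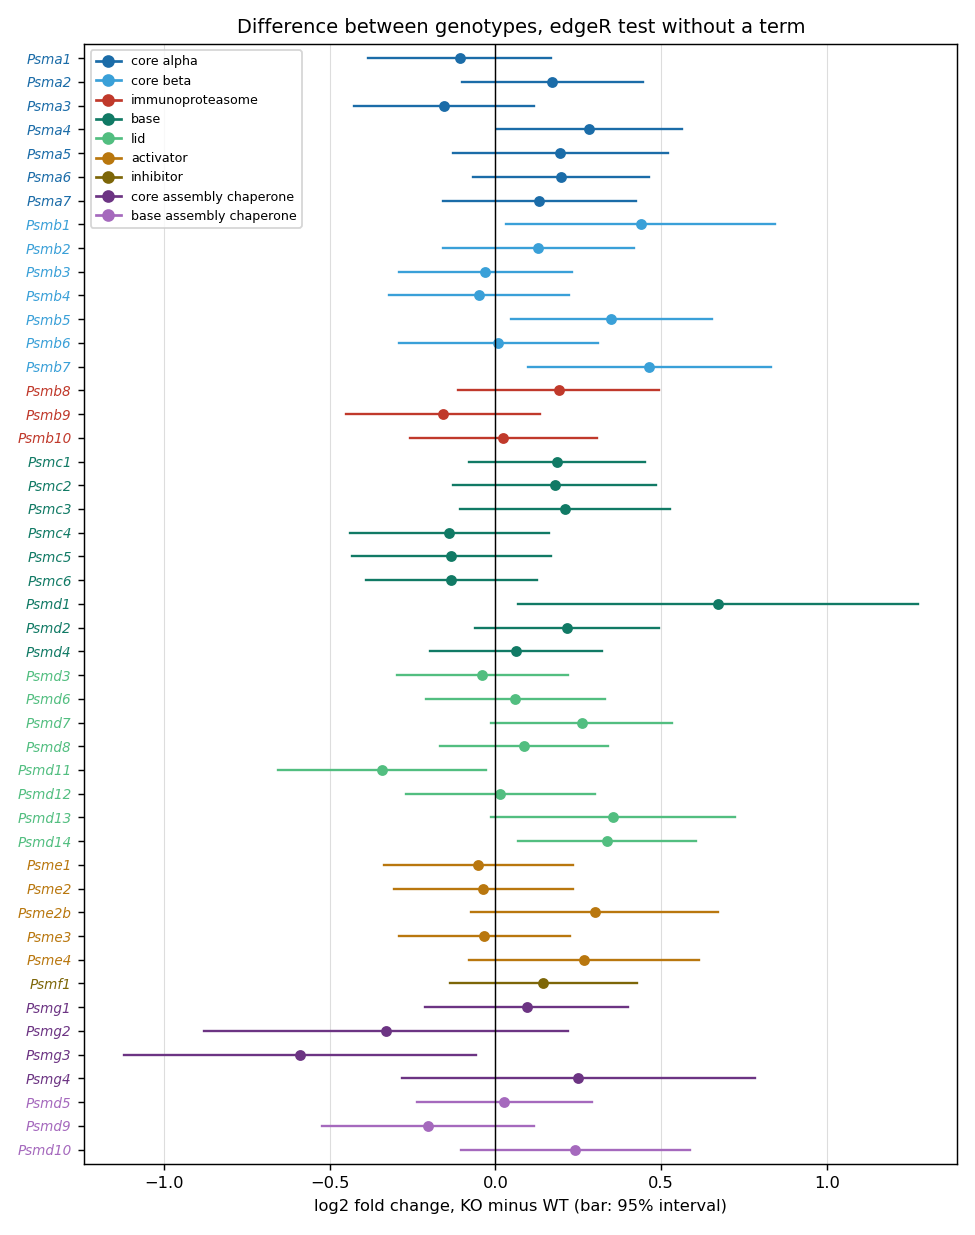
Log2 fold change, KO minus WT, of the 47 tested members in edgeR's test without a term (x axis; points), with 95% intervals as bars, coloured by subcomplex. Most intervals span 0 and lie within ±0.5; Psmd1 has the highest point, 0.67, and Psmg3 the lowest, -0.59.

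Among the catalytic subunits of the standard core, Psmb5 and Psmb7 were higher in both KO libraries and Psmb6 was not. Psmb7, which carries the trypsin-like site (chr2:38588036-38644087, GRCm38), was at 76.6 and 76.6 CPM in WT and 119 and 92.1 CPM in KO; both KO libraries lay above, KO replicate 1 farthest. Its log2 fold change was 0.46 ± 0.15 (SE; 95% interval 0.10 to 0.83; edgeR, adjusted p = 0.267, and 0.103 with the sex term). Psmb5, which carries the chymotrypsin-like site (chr14:54614119-54618022), was at 57.7 and 54.5 CPM in WT and 76.5 and 66.4 CPM in KO, again without overlap, with a log2 fold change of 0.35 ± 0.12 (0.05 to 0.65; adjusted p = 0.271, and 0.167 with the sex term). For Psmb6, which carries the caspase-like site (chr11:70525367-70527858), the WT values of 99.9 and 95.5 CPM lay between the KO values of 105 and 90.9 CPM. The interval of its difference ran from -0.29 to 0.31. Summed, the 3 genes stood at 234 and 227 CPM in WT and 301 and 249 CPM in KO. Exon bases shared with another gene, from which fragments would not be counted, made up 12.1% of Psmb5 and 11.8% of Psmb7.

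The immunoproteasome subunits were expressed at substantial levels and showed no common direction. Psmb8, the counterpart of Psmb5 (chr17:34197721-34201454), was the member with the most counts. Exon bases shared with the gene model Gm20496 made up 14.7% of Psmb8. Its level was 226 and 246 CPM in WT and 286 and 254 CPM in KO. Both KO libraries lay above both WT libraries, KO replicate 2 by little; the log2 fold change was 0.19 ± 0.12 (-0.11 to 0.49; edgeR, adjusted p = 0.44). Psmb9, the counterpart of Psmb6 (chr17:34181987-34187764), was at 43.8 and 44.6 CPM in WT and 37.0 and 42.2 CPM in KO, below both WT values (log2 fold change -0.16, interval -0.45 to 0.13, adjusted p = 0.505). Psmb10, the counterpart of Psmb7 (chr8:105935735-105938444), overlapped between genotypes at 35.5 and 39.1 CPM in WT and 38.5 and 37.3 CPM in KO (0.02, interval -0.26 to 0.30). Psmb8 and Psmb9 are neighbours in the MHC on chromosome 17, with starts 9957 bases apart and opposite strands, and their point estimates had opposite signs. Tap1, which encodes a subunit of the peptide transporter and overlaps 5.79% of the exon bases of Psmb9, was at 140 and 141 CPM in WT and 126 and 137 CPM in KO.

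For the ratios of catalytic subunits, levels were divided by exon length. In CPM per kilobase of merged exons, Psmb8 and Psmb5 were close: Psmb8 was at 66.9 and 72.9 in WT and 84.5 and 75.1 in KO, and Psmb5 at 64.2 and 60.6 in WT and 85.1 and 73.9 in KO. The ratio of Psmb8 to Psmb5 was thus 1.04 and 1.203 in WT and 0.993 and 1.02 in KO. That ratio depends on the length used: with the length of the APPRIS principal transcript, an alternative chosen after the values were seen, it was 2.16 and 2.498 in WT and 2.06 and 2.11 in KO. Psmb9 was well below Psmb6, with a ratio of 0.224 and 0.239 in WT and 0.179 and 0.237 in KO. Psmb10 to Psmb7 stood at 0.930 and 1.02 in WT and 0.649 and 0.813 in KO, so both KO libraries lay below both WT libraries, and the log2 ratio differed by -0.43; Psmb10 itself differed by 0.02 and Psmb7 by 0.46. With the principal transcript length the ratio was 0.410 and 0.451 in WT and 0.286 and 0.359 in KO, so its level, though not its difference, also depends on the length.
The 3 immunoproteasome genes summed to 0.713 and 0.806 of the 3 standard ones in WT and to 0.665 and 0.727 in KO, where the genotypes overlapped. Exact two-sided permutation tests of the 4 log2 ratios gave p from 0.3333 to 0.667, and 0.667 for each after Benjamini-Hochberg adjustment over the 4; no p under 0.3333 was possible.

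**Figure D3:**
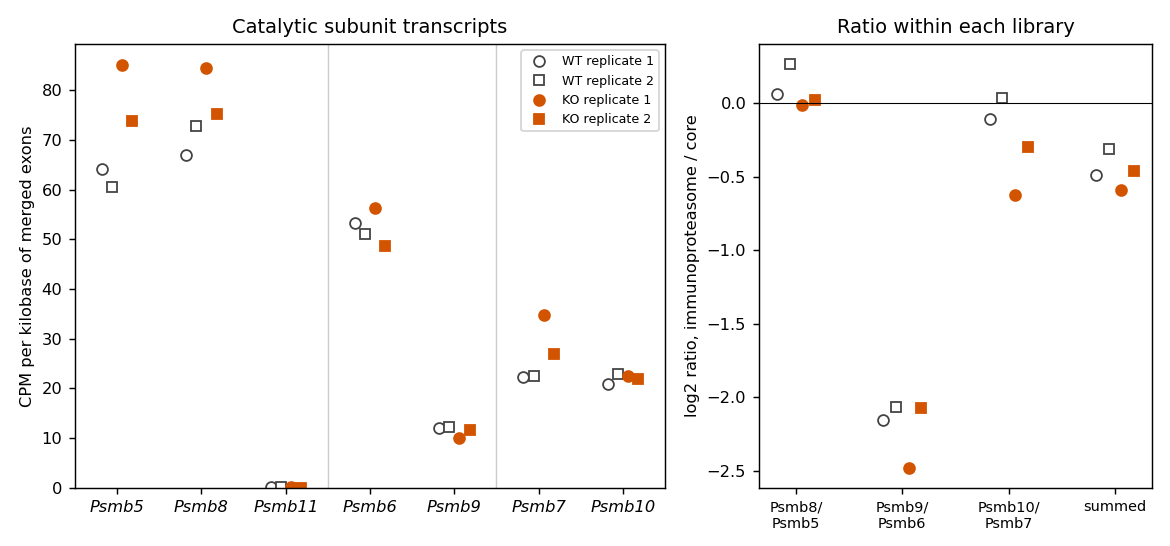
Left, level of Psmb5 to Psmb11 in CPM per kilobase of merged exons (y axis). Right, log2 ratio of each immunoproteasome subunit to the standard subunit it replaces, and of the 3 summed (y axis). Each library has one point, with WT open and KO filled. Psmb9 to Psmb6 is the lowest ratio in every library, at log2 values of -2.48 to -2.06, and for Psmb10 to Psmb7 both KO points lie below both WT points.

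Psmb11 (chr14:54621433-54629556) was nearly undetected, at 8 and 9 counts in WT and 6 and 1 in KO, or 0.338 and 0.317 CPM in WT and 0.265 and 0.0463 CPM in KO. The ratio of the summed counts, 7 in KO to 17 in WT, was 0.484 per library size, with a 95% interval of 0.170 to 1.23 that covers counting error only. Psmb11 lies beside Psmb5 in head-to-head orientation with starts 3411 bases apart in the deposited annotation, and the pair thus held one of the least and one of the amply expressed subunits side by side. Of the thymic epithelial genes set beside it, Krt14 had no count in any library and Foxn1, the master factor of these cells, 1 count in WT replicate 2 alone. Other epithelial genes had counts: Epcam had 149 and 216 in WT and 136 and 167 in KO. Krt8 had 42 and 23 counts in WT and 35 and 0 in KO, Krt18 had 43 and 26 in WT and 38 and 12 in KO, and Cxcl12 had 8 and 6 in WT and 15 and 1 in KO. In CPM those 3 were lowest in KO replicate 2, as Psmb11 was, and so were Prss16 and Aire, which had few counts. Epcam, Ccl25, Ly75, Cldn4, Ctsl, Krt5 and Enpep were not. Epcam was highest there, at 6.29 and 7.62 CPM in WT and 6.00 and 7.73 CPM in KO. The part of any of these genes in the counts of Psmb11 was not tested. The 14 marker genes summed to 215 and 216 CPM in WT and 237 and 226 CPM in KO, mostly from Ctsl, Ly75, Cldn4 and Ccl25, the first of which is a general lysosomal protease. Psma8, the alpha subunit of the testis proteasome, had 0 and 3 counts in WT and 5 and 2 in KO; 3 of the 4 libraries were at or under the 3 counts that a count of 0 allows, and no fold is given.

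The rest of the core was mixed. Its 7 tested alpha subunits had a median log2 fold change of 0.17, with 5 above 0 and 2 below. Psma4 had the highest value, 0.28 ± 0.11 (0.00 to 0.56; edgeR, adjusted p = 0.294), with 63.0 and 68.4 CPM in WT and 82.1 and 77.8 CPM in KO, apart in both replicates. Psma3 had the lowest, -0.15 (-0.43 to 0.12), at 79.8 and 81.7 CPM in WT and 69.9 and 75.2 CPM in KO, apart in the other direction. So did Psma1, at 106 and 105 CPM in WT and 92.8 and 103 CPM in KO, while Psma2, Psma5 and Psma6 lay on the upper side. Psma6 was the member with the highest level per kilobase, 145 CPM per kilobase of merged exons as the WT mean.
The structural beta subunits split likewise. Psmb1 was at 89.4 and 94.7 CPM in WT and 144 and 106 CPM in KO, a log2 fold change of 0.44 ± 0.17 (0.03 to 0.84; adjusted p = 0.283) that came mainly from KO replicate 1. Psmb4 was at 120 and 121 CPM in WT and 111 and 122 CPM in KO, with the genotypes overlapping and an interval of -0.32 to 0.22. Psmb2 (0.13) and Psmb3 (-0.03) had intervals that held 0.

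In the base, which holds the ATPase ring and the ubiquitin receptors, 6 of 9 members were above 0 and the median was 0.18. Psmd1 (chr1:86064387-86139151) stood out: it was at 63.8 and 67.6 CPM in WT and 132 and 77.5 CPM in KO, so that KO replicate 1 was far above the other libraries. The log2 fold change was 0.67 ± 0.25 (0.07 to 1.27; adjusted p = 0.277) without a term and 0.62 ± 0.18 (0.23 to 1.02; adjusted p = 0.0814) in the sex-term fit. KO replicate 1 differed from WT replicate 1, the female pair, by 1.05, and KO replicate 2 from WT replicate 2, the male pair, by 0.20. Genes overlapping Psmd1 share 7.61% of its exon bases, among them Htr2b on the other strand. Psmd1 also passed in the sex-term fit with a filter of at least 1 CPM in every library (0.62, adjusted p = 0.0317; 8.58% of all genes passed) and with no filter on low counts (5.85%). Its partner in the base scaffold, Psmd2, was at 189 and 194 CPM in WT and 234 and 210 CPM in KO (0.22, interval -0.06 to 0.49), and the ubiquitin receptor Psmd4 overlapped between the genotypes (0.06). The 6 ATPases divided evenly: Psmc1, Psmc2 and Psmc3 had values of 0.18 to 0.21 with both KO libraries above both WT libraries, and Psmc4, Psmc5 and Psmc6 had values of -0.14 to -0.13. Psmc4, the lowest of the base, was at 128 and 116 CPM in WT and 104 and 118 CPM in KO, with overlap. The ATPases form 1 ring with 1 copy of each.

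The lid, which removes ubiquitin chains before a substrate is unfolded, had a median of 0.07, with 6 of 8 members above 0. Psmd14, its deubiquitinating enzyme (chr2:61711694-61800376), was at 60.9 and 63.2 CPM in WT and 80.4 and 76.3 CPM in KO, with both KO libraries well above both WT libraries; the log2 fold change was 0.34 ± 0.11 (0.07 to 0.61; edgeR, adjusted p = 0.267). Its binding partner in the lid, Psmd7, was at 68.9 and 67.6 CPM in WT and 85.0 and 78.4 CPM in KO (0.26, -0.01 to 0.53). Psmd14, Psmd7, Psmd2 and Psmb1 are named here because of their values. Psmd13 had the highest value of the lid, 0.35 ± 0.15 (-0.01 to 0.72; adjusted p = 0.303), at 81.8 and 83.1 CPM in WT and 119 and 91.8 CPM in KO, with 10.1% of its exon bases shared with its neighbour Sirt3. Psmd11 had the lowest, -0.34 ± 0.13 (-0.66 to -0.03; adjusted p = 0.282), at 91.6 and 79.2 CPM in WT and 64.2 and 70.4 CPM in KO, where both KO libraries were the lower. Psmd3, the most abundant lid transcript in CPM, was at 219 and 224 CPM in WT and 216 and 214 CPM in KO, which is a difference of -0.04 with an interval of -0.30 to 0.22.

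Of the activators, Psme1 and Psme2, which form the interferon-inducible ring that opens the immunoproteasome, barely differed. Psme1 was at 97.5 and 103 CPM in WT and 91.7 and 102 CPM in KO (-0.05, interval -0.34 to 0.23), and Psme2 at 40.7 and 39.3 CPM in WT and 37.8 and 40.1 CPM in KO (-0.04, -0.31 to 0.23); both overlapped. Psme2b, a near-copy of Psme2 that is 99.4% identical over 794 aligned bases, was at 11.8 and 11.99 CPM in WT and 14.6 and 14.7 CPM in KO (0.30 ± 0.15, -0.07 to 0.67; edgeR, adjusted p = 0.351), and reads of the copies could be split or lost, so both values are uncertain. Psme3, the nuclear activator, was at 144 and 137 CPM in WT and 136 and 138 CPM in KO, a difference of -0.03 (-0.29 to 0.22). Psme4, the large nuclear activator linked to acetylated histones, was at 126 and 125 CPM in WT and 168 and 133 CPM in KO, both above WT (0.27 ± 0.14, -0.08 to 0.61; adjusted p = 0.363). The inhibitor Psmf1 was at 35.2 and 37.3 CPM in WT and 38.2 and 41.9 CPM in KO (0.14, -0.14 to 0.43).

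The assembly chaperones were among the less abundant tested members, at 5.51 to 27.8 CPM for the core chaperones and 21.2 to 41.3 CPM for the base chaperones over all libraries. Psmg3 (chr5:139823592-139826885), which helps order the alpha ring, was at 9.37 and 9.91 CPM in WT and 5.51 and 7.31 CPM in KO, with both KO libraries below both WT libraries; the log2 fold change was -0.59 ± 0.22 (-1.12 to -0.06; edgeR, adjusted p = 0.28, and 0.16 with the sex term). Its partner Psmg4 was at 11.8 and 12.5 CPM in WT and 17.1 and 11.8 CPM in KO, where KO replicate 1 alone was high (0.25, -0.28 to 0.78). The other pair, Psmg1 and Psmg2, had values of 0.09 and -0.33, with intervals that held 0. Of the base chaperones, Psmd10 was at 0.24, Psmd5 at 0.03 and Psmd9 at -0.20, the last with 25.5% of its exon bases shared with an overlapping gene model.

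The replicate pairs showed 1 pattern throughout. The difference between genotypes was the larger in size in the female pair in 45 of 47 members. That is a higher share than over all genes, where it was so in 11048 of 15070. Across the members the median difference was 0.12 for the female pair and 0.02 for the male pair, against -0.01 and 0.00 for all genes. Directions mostly held, as they did over all genes. Of the 47 members, 26 were higher in KO in both pairs, 11 were lower in both and 10 had opposite signs. Of all 15070 genes, 35.5% were higher in both, 36.7% were lower in both and 4187 genes had opposite signs. As a description over 47 genes that share the same 4 libraries, the differences of the pairs had a Pearson correlation of 0.77. KO replicate 1, the female KO library, is also the one with the highest mitochondrial and ribosomal protein shares.

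**Figure D4:**
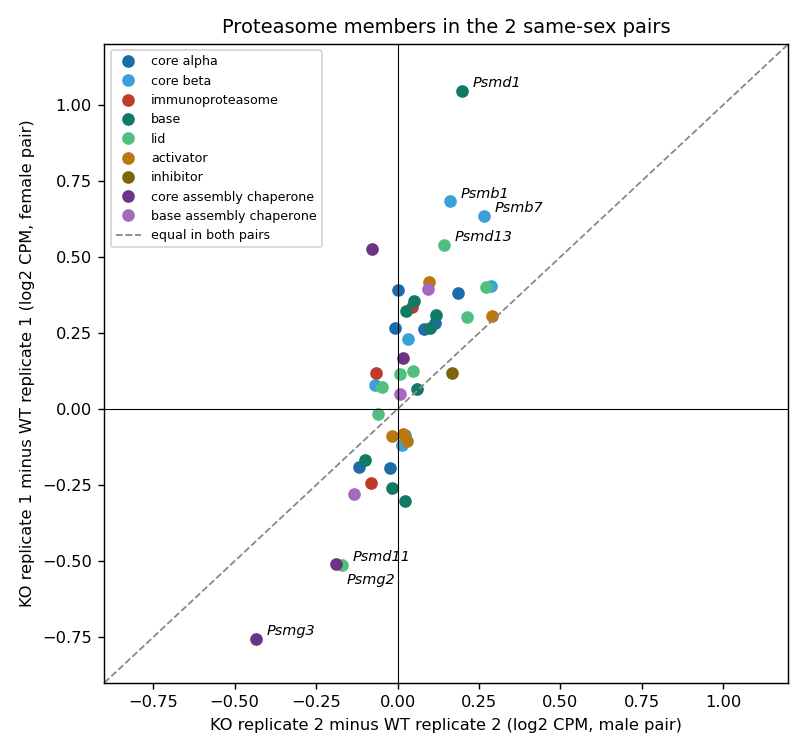
Difference between KO and WT of each tested member in the male pair (x axis) and the female pair (y axis), in log2 CPM with a prior count of 2, coloured by subcomplex, with the line of equal values dashed. Points spread more along the female axis, from -0.76 for Psmg3 to 1.05 for Psmd1, than along the male axis.

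Genes that work with the proteasome were described from a list of 41 in 6 groups. None passed an adjusted p of 0.05 in either edgeR fit, while 6 did at an unadjusted p (3 higher and 3 lower) without a term, or 14.6% against 16.8% of all genes. The median log2 fold change of the list was 0.15, with 30 above 0 (73.2%, against 49.8% of all genes) and 11 below. DESeq2 called 1, Erap1 (0.64, adjusted p = 0.0488), where it called 3.07% of all genes, and limma-voom called 0. Without KO replicate 1 it called only Rps27a, where 3.31% of all genes passed. Erap1, which trims peptides for MHC class I, came closest, at 53.1 and 57.0 CPM in WT and 99.1 and 71.7 CPM in KO (0.63; edgeR, adjusted p = 0.267, and 0.0536 with the sex term). With no filter on low counts Erap1 passed in edgeR without a term, with Vcp, B2m and Adrm1, where 5.63% of all genes passed. In the sex-term fit Erap1 passed without mitochondrial and ribosomal protein genes (adjusted p = 0.0406, where 4.52% of all genes passed). In that fit it also passed with no filter (adjusted p = 0.00283, 5.85% of all genes) and with at least 1 CPM in every library (0.01998, 8.58%). Of the ubiquitin genes, the 2 most abundant were Ubb, at 913 and 925 CPM in WT and 1127 and 1037 CPM in KO (0.24), and Rps27a, a fusion of ubiquitin with a ribosomal protein, at 254 and 256 CPM in WT and 326 and 344 CPM in KO (0.39). Both had higher values in both KO libraries.

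Of the activating enzymes, Uba1 had a value of 0.34 and Uba6 of 0.26. Vcp, the ATPase that unfolds substrates ahead of the proteasome, was at 277 and 280 CPM in WT and 469 and 312 CPM in KO (0.49; adjusted p = 0.301), and the shuttle factor Ubqln1 had a value of 0.32. Among proteins bound to the proteasome, Ecpas was at 0.32, whereas the ubiquitin receptor Adrm1 was at 108 and 103 CPM in WT and 72.0 and 83.2 CPM in KO, below in both (-0.44 ± 0.12; adjusted p = 0.267). Nfe2l1 is the factor that drives proteasome genes through antioxidant response elements when proteasome activity is short. It was at 86.3 and 85.7 CPM in WT and 126 and 89.7 CPM in KO (0.33, -0.10 to 0.76). In its group Bach1 was at 0.29 and Ddi2, the activating protease of Nfe2l1, at 0.10. In the group around the immunoproteasome, Tap2 was at -0.07. B2m, the light chain of MHC class I, was at 173 and 154 CPM in WT and 264 and 188 CPM in KO (0.46, edgeR adjusted p = 0.289). Irf1, a factor that drives the immunoproteasome genes downstream of interferon, had a value of -0.13 with an interval that held 0.

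Other cell types that express the immunoproteasome were looked for by their markers. Dendritic cell genes summed to 15.8 and 17.1 CPM in WT and 21.3 and 18.6 CPM in KO, natural killer and gamma-delta T cell genes to 112 and 94.5 in WT and 155 and 123 in KO with Ncr1 and Gzmb at 0, and macrophage and granulocyte genes to 21.5 and 19.6 in WT and 15.3 and 18.1 in KO with S100a8 at 0. B cell genes, mostly Ighm, summed to 490 and 428 CPM in WT and 495 and 494 in KO. Markers of mature thymocytes summed to 416 and 397 CPM in WT and 489 and 456 in KO. Except for macrophages and granulocytes, these sums were higher in both KO libraries than in both WT libraries, as Psmb8 was, the B cell sum by little; their part in the values of the immunoproteasome genes was not tested.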

How the data were processed

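Poly-T selected RNA of sorted DP thymocytes was sequenced from 2 WT and 2 KO libraries prepared without strand marking, per the labels' protocols. The submitters' processing notes name GRCm38 and the tools HISAT2, DESeq2, FastQC, Trim Galore 0.5.0 and featureCounts 1.6.4. The deposited table holds raw counts of fragments for each gene, made by the authors with featureCounts 1.6.3 on Ensembl 98 exons without strand, per the file headers, so versions differ between the sources; no option for multi-mapped or multi-overlapping fragments was set, and sense and antisense reads cannot be told apart. The authors' table also gives merged exon length in bases, per the file headers. Symbols came from GENCODE M21 (55154 of 56239 IDs matched, 98.1%).

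Counts were analysed in R 4.3.3: edgeR 4.0.16 with filterByExpr, TMM factors (0.919 to 1.04), the quasi-likelihood F test over 15070 genes and Benjamini-Hochberg adjustment (threshold 0.05), without a covariate (2 residual degrees of freedom) and, as an alternative shown beside it, with the replicate number as a term (1 residual degree of freedom). Replicate numbers coincide with sex by Xist, which is where the pairing comes from; a shared day or batch could not be told apart from it, and the correlation of replicate differences between genotypes was 0.47 over all genes and 0.01 over the members. The labels do not say that replicates came from separate mice; sex shows that replicates 1 and 2 did. Alternatives were DESeq2 1.42.0, limma 3.58.1's voom, other scalings and filters, and leaving out each library. Intervals are 95%; a count of 0 allows up to 3 counts (0.110 to 0.142 CPM by library). Scripts' tests were checked on simulated counts.

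The members and gene lists were chosen with earlier results of these data known. Named genes were the catalytic, activator and inhibitor members, the highest and lowest fold change of each other subcomplex, and the 2 most abundant genes of each pathway list; Erap1, Nfe2l1, Irf1, Tap1 and members noted in the text were added after their values were seen. The value of 1 pathway gene is not reported here.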

Additional observations from a re-analysis of the deposited data

Results flagged for a closer look

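For the following members and sums the genotypes differed in one direction in the female pair and in the other in the male pair; the difference between the pairs was not tested, with 1 library of each genotype and sex. The female difference was the higher for Psmg4, by 0.604 on the log2 scale (female 0.53, male -0.08), Ddi2 by 0.293 (0.23 and -0.06), Psmb10 by 0.183 (0.12 and -0.07), Psmb6 by 0.149 (0.08 and -0.07) and the summed base chaperones by 0.0420. The female difference was the lower for Psmc4, by -0.325 (-0.30 and 0.02), Psme2 by -0.134 (-0.10 and 0.03), Psmb4 by -0.130 (-0.12 and 0.01) and Psme3 by -0.101 (-0.08 and 0.02). The median of the 5 activators differed by -0.113 (-0.08 and 0.03), and the median of the 3 immunoproteasome genes by 0.183, the value of Psmb10, which is their middle gene.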

How the results depend on the processing

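The lowest count of a tested member was 125, fold changes rest on 2 libraries a genotype, and Psma8 and Psmb11 were limited by their few counts. Calls depended on the filter and on single libraries. All genes called without a term, 1 in the test as reported, numbered 1465 with no filter, 0 with at least 1 CPM in every library, 462 with DESeq2 (177 higher and 285 lower), 483 with the replicate block (152 higher and 331 lower) and from 1 to 5148 when 1 library was left out. Members called numbered 2 with no filter (Psmd1, 0.66, adjusted p = 4.62e-04 in edgeR; Psmb7, 0.46, adjusted p = 0.0369), where 5.63% of all genes passed, and from 0 to 22 when 1 library was left out; pathway genes numbered 4 with no filter, 1 with DESeq2 and 0 to 22. The replicate block changed the call of no member and no pathway gene, and it changed that of Chaf1b. In the sex-term fit, 483 genes became 145 with library totals, 1521 with no filter, 1017 with at least 1 CPM and 76 with a robust dispersion, and members became 1 with no filter and 1 with at least 1 CPM. The members' median of 0.09 became 0.0090 with library totals and ranged from 0.05 to 0.12 with 1 library left out. Signs turned for values near 0: with library totals Psmb6 to -0.079, Psmb10 to -0.059, the activator sum to -0.014 and the lid sum to -0.012, and with RLE factors the base chaperone sum to 0.0017. With 1 library left out, values ranged for Psmb6 from -0.098 to 0.107, Psmb10 from -0.043 to 0.098, Psmb4 from -0.126 to 0.023, Psme1 from -0.136 to 0.030, Psme2 from -0.084 to 0.0099, Psme3 from -0.070 to 0.0079, Psmg4 from -0.036 to 0.487, Ddi2 from -0.083 to 0.259, Tap2 from -0.224 to 0.077, the base chaperone sum from -0.060 to 0.053 and the log2 ratio of Psmb9 to Psmb6 from -0.368 to 0.036. The other genes named by rule kept their direction; 396 of the 441 alternatives of named genes kept direction and side of the threshold, 32 passed it in the same direction and 13 turned sign. The causes were not tested.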
